A study of Caenorhabditis elegans with 25 samples.

Results

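The comparison set animals without the neuropeptide gene flp-17 and animals without its receptor gene egl-6 against the wild type strain N2, to ask which transcripts move the same way when either end of the signal is lost. Its members are 15 of the 25 libraries of the series: 5 of flp-17(lof), genotype flp-17(n4894)IV; 5 of egl-6(lof), genotype egl-6(n4537)X; and 5 of N2. They were chosen by genotype alone. Each sample was poly(A) RNA from 500 to 600 whole Caenorhabditis elegans on day 1 of adulthood, and both mutant strains had been outcrossed 6 times into N2. All 3 strains were washed and put on fresh plates 24 hours before collection and none was sorted. The other 10 libraries, from animals with an extrachromosomal array that carries flp-17p::flp-17::GFP and a myo-3p:mCherry marker, in a wild type (flp-17oe) or an egl-6(n4537) background (flp-17oe egl-6(lof)), were sorted for the marker. They serve below to share the estimates of spread and of the batch difference, and as a second setting for single genes. Each genotype is 1 strain with 1 allele, the mutations are present in all cells throughout life, and the labels do not say whether replicates were separate cultures, so p-values measure only the spread between these samples.

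FMRFamide-like peptides of the FLP-17 gene are made by the BAG neurons, a pair of head sensory neurons that respond to oxygen and carbon dioxide. EGL-6 is a G protein-coupled receptor that FLP-17 and FLP-10 peptides activate, and its known action is to inhibit egg laying through the HSN motor neurons. Both cell types are a very small part of a whole worm. In bulk RNA, fewer cells of a type and less RNA per cell cannot be told apart.

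Depth lay between 25164923 and 99717657 counts in flp-17(lof), between 48048407 and 76965846 in egl-6(lof) and between 42696185 and 67059902 in N2. The labels give batch 1 for replicate 1 of every genotype and batch 2 for replicates 2 to 5. The shallowest library, flp-17(lof) replicate 1, departed from its group: ribosomal RNA genes took 9.50% of its counts, while their share in the 4 other flp-17(lof) libraries was 0.335% to 1.65%, and its TMM scaling factor was 0.740, while theirs were 0.981 to 1.01. Results are therefore given with and without it. Defining markers of intestine, muscle, hypodermis, germline and neurons were present in all 15 libraries, with the adult collagen col-19 at 1159 to 4398 CPM (counts scaled to library size). The hypodermis genes rol-6, at 0.0174 to 0.559 CPM, and dpy-7, at 0.269 to 1.29 CPM, were near the floor. The serotonin synthesis gene of HSN and a few other neurons, tph-1, lay between 0 and 0.374 CPM.

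The mutated genes fit their labels. In replicates 1 to 5, flp-17 (WBGene00001460) had 0.376, 0.250, 0.328, 0.354 and 0.243 CPM in flp-17(lof), 5.01, 4.49, 4.58, 4.71 and 4.43 CPM in egl-6(lof), and 4.91, 4.71, 3.88, 5.07 and 4.55 CPM in N2. The receptor gene egl-6 (WBGene00001175) had 6.5, 5.72, 6.12, 5.99 and 6.02 CPM in flp-17(lof), 2.38, 2.25, 3.03, 3.45 and 2.94 CPM in egl-6(lof), and 5.38, 5.60, 6.44, 6.91 and 5.82 CPM in N2. Each gene was lowest in its own mutant in every replicate number, and neither mutation moved the transcript of the other gene beyond the spread (log2 0.00, SE 0.12, for egl-6 in flp-17(lof), and 0.00, SE 0.10, for flp-17 in egl-6(lof)). The second ligand gene, flp-10, averaged 3.39 ± 0.662 CPM in flp-17(lof), 3.63 ± 0.609 CPM in egl-6(lof) and 3.67 ± 0.573 CPM in N2 (SD, n = 5 each) and passed no test, with a log2 change of -0.05 (SE 0.15) in the mean of both mutants.

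Few genes differed in the mean of both mutants. Of 14634 genes tested, 22 passed a Benjamini-Hochberg adjusted p under 0.05 in edgeR's quasi-likelihood test with a term for batch, which is 0.15% of genes: 13 were higher (0.0888%) and 9 were lower (0.0615%). Of these 22, 11 moved the same way in each mutant, that is, with the same sign and an unadjusted p under 0.05 in flp-17(lof) against N2 and in egl-6(lof) against N2, which is 0.0752% of genes tested, and 8 of the 11 were higher. Without flp-17(lof) replicate 1, 22 genes passed again (0.149%), 20 of them the same genes, and 12 moved the same way, 10 of them the same genes. Each mutant is compared with the same N2 libraries, so a deviation of N2 itself enters both signs.

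The 11 genes, all annotated as protein-coding, are a conjugating enzyme gene (ugt-64), 2 F-box genes (fbxa-192 and fbxc-43), a sperm channel gene (spe-41) and 7 genes known in the files by sequence names only: T03D3.5, C07G3.8, H14A12.5 and C18D4.6, which rose, and C10C6.7, T16H12.2 and T10D4.6, which fell. Taken singly with an adjusted p, 3 of them passed in both mutants: ugt-64, fbxa-192 and C10C6.7.

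**Figure D1:**
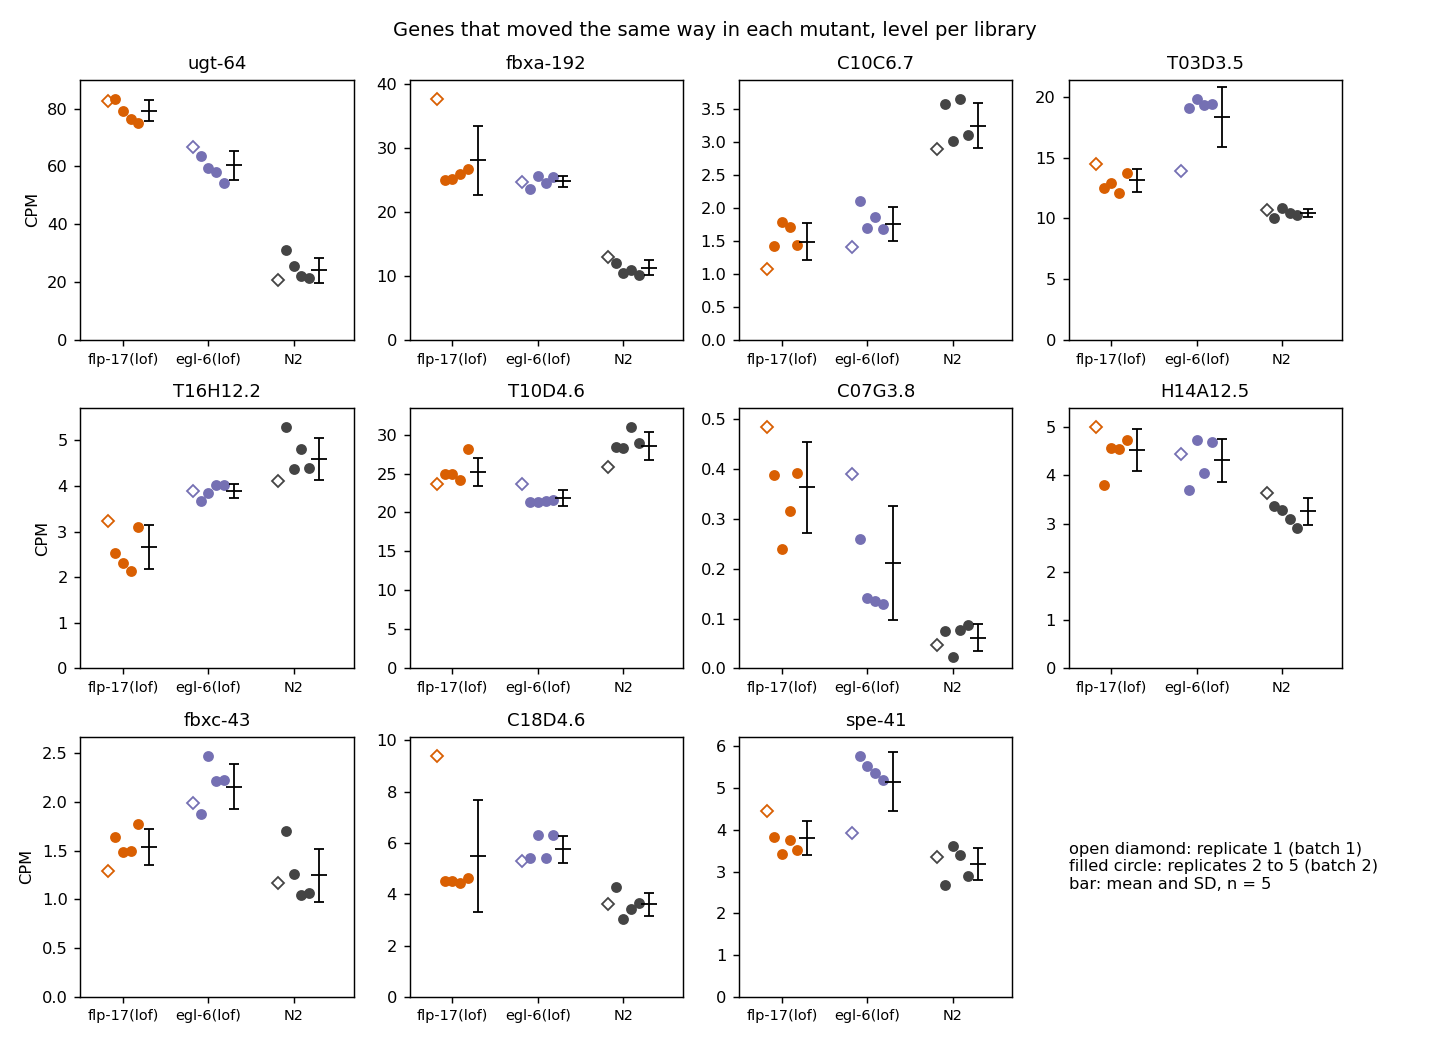
Level of each of the 11 genes in CPM (vertical axis, linear, from 0) in the 5 libraries each of flp-17(lof), egl-6(lof) and N2; open diamonds are replicate 1 (batch 1), filled circles replicates 2 to 5 (batch 2), and the bar is the mean and SD. For ugt-64 the mutants average 79.2 and 60.3 CPM against 24.1 CPM in N2, with no overlap, whereas T10D4.6, fbxc-43 and spe-41 overlap between mutant and N2 libraries.

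The gene ugt-64 showed the smallest adjusted p among the 11. It encodes a UDP-glucuronosyltransferase, an enzyme family that joins sugars to small lipophilic molecules and so takes part in their clearance. In replicates 1 to 5 it had 82.5, 83.3, 79.2, 76.3 and 74.9 CPM in flp-17(lof), 66.7, 63.5, 59.4, 58.0 and 54.1 CPM in egl-6(lof), and 20.6, 31.1, 25.6, 22.1 and 21.4 CPM in N2. Every mutant library lay above every N2 library, and every flp-17(lof) library lay above every egl-6(lof) library. Mean levels were 3.28 times the N2 mean in flp-17(lof) and 2.50 times it in egl-6(lof). The log2 change was 1.52 (SE 0.10, adjusted p = 9.29e-10, edgeR) in the mean of both mutants, 1.51 (SE 0.10) without flp-17(lof) replicate 1 and 1.44 (SE 0.10) in batch 2 alone. In batch 1, with 1 library per genotype and hence no test, it was 2.00 in flp-17(lof) and 1.69 in egl-6(lof). The difference between the mutants, log2 -0.39 (SE 0.11) for egl-6(lof) minus flp-17(lof), had an adjusted p of 0.0564 and so did not pass.

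The gene ugt-64 (WBGene00015577) lies on chromosome V at 3503080 to 3506352, minus strand, in the Ensembl annotation of WBcel235, the assembly also called ce11. The next gene, C07G3.8 (WBGene00015576, V, 3498103 to 3502138, minus strand), lies 941 bases away on the side where transcription of ugt-64 ends and also rose. It rested on few reads, at 9, 31, 24, 16 and 21 counts in flp-17(lof), 21, 20, 7, 8 and 7 counts in egl-6(lof), and 2, 5, 1, 4 and 5 counts in N2. In CPM, all 10 mutant libraries lay above all 5 N2 libraries, with means of 0.363 ± 0.0917 CPM in flp-17(lof), 0.211 ± 0.114 CPM in egl-6(lof) and 0.0617 ± 0.0264 CPM in N2 (SD, n = 5 each). No N2 library reached 10 counts, the minimum of the count filter. The gene was thus kept only through genotypes in which it is high, and its separation from N2 is not read as support. The log2 change was 2.04 (SE 0.37, adjusted p = 0.0114, edgeR) in the mean of both mutants. The sources do not say whether counting used strand or how reads past a gene's end were assigned, so whether these counts come from C07G3.8 itself was not tested. Beyond this pair, the nearest tested genes on each side did not pass: lys-7, a lysozyme gene, had a log2 change of 0.01 (SE 0.11), and str-227, a chemoreceptor family gene, -0.10 (SE 0.26). A gene on the other strand within ugt-64, C07G3.10, had too few counts to be tested.

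Among UDP-glucuronosyltransferases as a family, ugt-64 was the only one of 61 tested members to pass in the mean of both mutants. Of the 61, 49 had a positive log2 change, with a median of 0.08 against 0.01 over all genes. With an unadjusted p under 0.05, 2 were higher (2.66% of all genes) and 0 lower. Their summed level was 603 to 704 CPM in flp-17(lof), 650 to 736 CPM in egl-6(lof) and 598 to 623 CPM in N2. Every egl-6(lof) library lay above every N2 library in that sum, as did 4 of the 5 flp-17(lof) libraries, all but replicate 1. The sum includes ugt-64 itself, which averaged 79.2 CPM in flp-17(lof), 60.3 CPM in egl-6(lof) and 24.1 CPM in N2. By itself the sum therefore does not tell whether the other members changed, which was not tested.

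The gene fbxa-192 was the second clear rise. F-box proteins hold substrates for ubiquitin ligases of the SCF type, and the A family is one of several large F-box families of this worm. In replicates 1 to 5, fbxa-192 (WBGene00010212, V, 17640672 to 17650527, minus strand) had 37.7, 25.0, 25.2, 25.9 and 26.7 CPM in flp-17(lof), 24.7, 23.6, 25.7, 24.5 and 25.5 CPM in egl-6(lof), and 13.0, 12.0, 10.5, 11.0 and 10.2 CPM in N2. No mutant library overlapped with N2, and flp-17(lof) replicate 1 was far above the rest. The log2 change was 1.22 (SE 0.09, adjusted p = 4.11e-09, edgeR) in the mean of both mutants, and 1.15 (SE 0.07) without flp-17(lof) replicate 1. The mutants did not differ from each other past the threshold (log2 -0.17, SE 0.09, adjusted p = 0.602). Its neighbour fbxa-108, of the same family, had a log2 change of 0.10 (SE 0.06) and did not pass.

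Of 108 F-box A genes tested, 2 rose (fbxa-192 and fbxa-107; 0.0888% of all genes rose) and none fell (0.0615% of all genes) in the mean of both mutants, with a family median of 0.03. The second, fbxa-107, did not meet the rule for both mutants. It averaged 5.67 ± 0.678 CPM in flp-17(lof), 8.51 ± 0.286 CPM in egl-6(lof) and 5.23 ± 0.460 CPM in N2 (SD, n = 5 each). It rose in egl-6(lof) by log2 0.70 (SE 0.07, adjusted p = 3.69e-06), had a log2 change of 0.12 (SE 0.07) in flp-17(lof), and the mutants differed (adjusted p = 5.80e-05). Without flp-17(lof) replicate 1, its log2 change in flp-17(lof) was 0.18 (SE 0.07) and it met the rule. Near-identical copies in these families can share reads, and how the authors' counting treated such reads is not given in the sources used here.

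The largest fall among genes of the rule was that of C10C6.7 (WBGene00007515, IV, 11465411 to 11467513, minus strand). In replicates 1 to 5 it had 1.07, 1.41, 1.78, 1.71 and 1.44 CPM in flp-17(lof), 1.41, 2.11, 1.69, 1.86 and 1.67 CPM in egl-6(lof), and 2.89, 3.57, 3.01, 3.65 and 3.09 CPM in N2. All mutant libraries lay below all N2 libraries. The log2 change was -1.0 (SE 0.11, adjusted p = 6.14e-06, edgeR) in the mean of both mutants, -0.98 (SE 0.11) without flp-17(lof) replicate 1, and -1.11 in flp-17(lof) beside -0.89 in egl-6(lof).

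The changes in T03D3.5 and T16H12.2 had 1 direction but unequal size in the mutants. In replicates 1 to 5, T03D3.5 (WBGene00020183, V, 2823806 to 2826835, minus strand) had 14.5, 12.5, 12.9, 12.1 and 13.7 CPM in flp-17(lof), 13.9, 19.1, 19.8, 19.3 and 19.4 CPM in egl-6(lof), and 10.7, 10.0, 10.8, 10.5 and 10.2 CPM in N2. Both mutants stood above N2 without overlap, and 4 of the 5 egl-6(lof) libraries, all but that of batch 1, stood above every flp-17(lof) library. The log2 change was 0.57 (SE 0.07, adjusted p = 4.13e-05, edgeR) in the mean, 0.81 (SE 0.08) in egl-6(lof) and 0.33 (SE 0.08) in flp-17(lof), and the difference between mutants passed (adjusted p = 0.00102). For T16H12.2 (WBGene00011812, III, 10086283 to 10087171, plus strand) the order was the other way. It had 3.22, 2.53, 2.31, 2.13 and 3.10 CPM in flp-17(lof), 3.90, 3.67, 3.85, 4.02 and 4.02 CPM in egl-6(lof), and 4.10, 5.28, 4.37, 4.82 and 4.40 CPM in N2. The egl-6(lof) libraries came close to the lowest N2 library but did not reach it. Its log2 change was -0.53 (SE 0.09, adjusted p = 0.00625) in the mean, -0.81 (SE 0.11) in flp-17(lof) and -0.24 (SE 0.10) in egl-6(lof), with an adjusted p of 0.00639 for the difference between mutants.

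The other 5 genes moved by less or passed by a narrow margin. T10D4.6 averaged 25.2 ± 1.76 CPM in flp-17(lof), 21.9 ± 1.02 CPM in egl-6(lof) and 28.5 ± 1.82 CPM in N2, a log2 change of -0.28 (SE 0.05, adjusted p = 0.0114, edgeR) in the mean. H14A12.5, which overlaps the fumarase gene fum-1 on the other strand, averaged 4.53 ± 0.443 CPM in flp-17(lof), 4.32 ± 0.446 CPM in egl-6(lof) and 3.25 ± 0.276 CPM in N2 (SD, n = 5 for each group of either gene). No mutant library overlapped with N2, its log2 change was 0.44 (SE 0.09, adjusted p = 0.0283), and fum-1 itself had a log2 change of -0.01. The F-box C gene fbxc-43 had a log2 change of 0.55 (SE 0.11, adjusted p = 0.0454), with 1.54 ± 0.182 CPM in flp-17(lof), 2.15 ± 0.232 CPM in egl-6(lof) and 1.24 ± 0.269 CPM in N2. Its flp-17(lof) libraries overlapped with N2.

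For C18D4.6 the size rested in part on 1 library. It had 9.40, 4.51, 4.53, 4.45 and 4.63 CPM in flp-17(lof), 5.29, 5.43, 6.32, 5.40 and 6.30 CPM in egl-6(lof), and 3.63, 4.28, 3.05, 3.42 and 3.67 CPM in N2. All mutant libraries lay above N2, and the 9.40 CPM is flp-17(lof) replicate 1. Without that library the log2 change was 0.49 (SE 0.08, adjusted p = 0.00380, edgeR), against 0.61 (SE 0.13, adjusted p = 0.0455) with it. The gene passed in 8 of 29 refits with other settings or libraries, and the adjusted p reached 0.830.

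The gene spe-41 encodes a TRP-type calcium channel of sperm that is needed for fusion with the oocyte. It had 4.46, 3.84, 3.42, 3.76 and 3.51 CPM in flp-17(lof), 3.94, 5.77, 5.52, 5.37 and 5.20 CPM in egl-6(lof), and 3.34, 2.67, 3.61, 3.4 and 2.89 CPM in N2. The egl-6(lof) libraries stood above N2, and the flp-17(lof) libraries overlapped with it. The log2 change in the mean was 0.47 (SE 0.10, adjusted p = 0.0455, edgeR). It did not pass without flp-17(lof) replicate 1 (log2 0.43, adjusted p = 0.0613), and the mutants differed (log2 0.46, SE 0.11, adjusted p = 0.0343). Summed levels of other sperm genes, given further on, were higher in egl-6(lof) than in N2 in batch 2, as was spe-41, but in batch 1 they were highest in N2, where spe-41 was lowest; their part in its change was not tested.

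Leaving out flp-17(lof) replicate 1 kept the direction of all 11 genes. It took spe-41 out of the set and brought in fbxa-107 and B0261.8. B0261.8, named after its values were seen, had 14.9, 7.52, 8.12, 8.27 and 8.48 CPM in flp-17(lof), 9.29, 8.16, 9.01, 8.50 and 7.70 CPM in egl-6(lof), and 13.5, 14.2, 11.0, 11.2 and 11.2 CPM in N2. All mutant libraries but flp-17(lof) replicate 1 lay below N2. Its log2 change was -0.54 (SE 0.08, adjusted p = 0.000866, edgeR) without that library, against -0.47 (SE 0.10, adjusted p = 0.0541) with it.

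**Figure D2:**
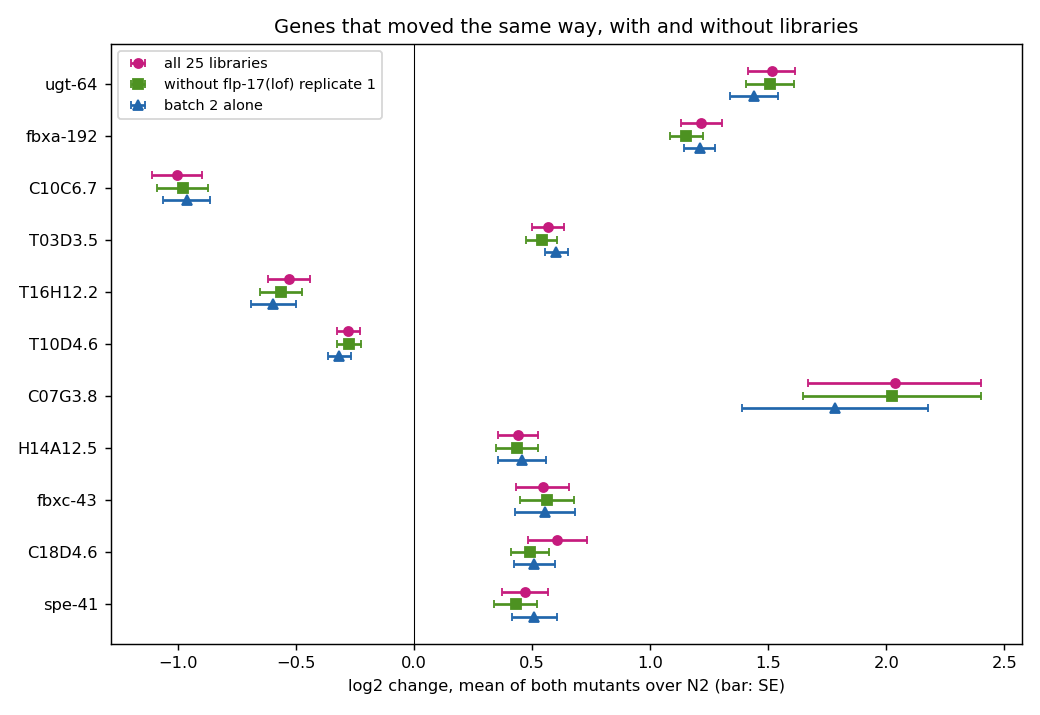
Log2 change in the mean of both mutants over N2 (horizontal axis, bars are SE) for the 11 genes, from all 25 libraries (circles), without flp-17(lof) replicate 1 (squares) and from batch 2 alone (triangles). The 3 estimates of each gene keep their sign, and ugt-64 stays between 1.44 and 1.52.

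Levels were also compared without a model. In 8 of 14634 genes (0.0547%) all 10 mutant libraries lay above all 5 N2 libraries in CPM, and in 6 genes (0.041%) all lay below. Of the 11 genes, 6 belong to the 8 that were higher (ugt-64, fbxa-192, T03D3.5, C07G3.8, H14A12.5 and C18D4.6) and 2 to the 6 that were lower (C10C6.7 and T16H12.2). The 11 were chosen by the contrast of these same 15 libraries, so this overlap follows from the choice and is not a second check. For C07G3.8 the count filter also favoured it. How many genes would separate in this way by chance was not tested. By position, 5 of the 11 genes lie on chromosome V, which holds 19.3% of the tested genes, 3 on III, 2 on II and 1 on IV, with none on I or X. The 5 on V are not spread evenly. From the start of ugt-64, C07G3.8 starts 0.005 Mb and T03D3.5 0.679 Mb away, while C18D4.6 and fbxa-192 start 14.03 and 14.14 Mb away. Of the 11, only C10C6.7 shares a chromosome with flp-17, at 5.72 Mb from its start, and none shares one with egl-6.

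The other 11 of the 22 genes passed through 1 mutant. Apart from flp-17 itself, the flp-17(lof) libraries alone carried Y37E11B.5, tcl-2 and sdc-3. Y37E11B.5 averaged 12.3 ± 0.539 CPM in flp-17(lof), 33.8 ± 1.97 CPM in egl-6(lof) and 33.2 ± 2.15 CPM in N2. The gene tcl-2, which acts in the asymmetric division of the T blast cell in the tail, averaged 6.60 ± 0.311 CPM in flp-17(lof), 13.3 ± 0.442 CPM in egl-6(lof) and 13.4 ± 1.39 CPM in N2. The gene sdc-3, a zinc finger gene of dosage compensation and sex determination, averaged 80.5 ± 8.64 CPM in flp-17(lof), 29.1 ± 2.91 CPM in egl-6(lof) and 30.6 ± 5.90 CPM in N2 (SD, n = 5 for each group of these genes). In each of these 3 genes the flp-17(lof) libraries lay apart from all others, and the mutants differed with adjusted p-values (edgeR) of 6.46e-15, 3.20e-08 and 3.20e-08 in that order of genes.

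Carried by egl-6(lof) were egl-6, sax-2, fbxa-107, scrm-4, B0511.11, C08F11.7 and F56B3.2, the last 2 named after their values were seen. The gene sax-2, a Furry homologue that with an NDR kinase limits neurite outgrowth, averaged 146 ± 15.8 CPM in flp-17(lof), 75.4 ± 5.89 CPM in egl-6(lof) and 166 ± 29 CPM in N2. C08F11.7 averaged 0.397 ± 0.0841 CPM in flp-17(lof), 1.12 ± 0.118 CPM in egl-6(lof) and 0.341 ± 0.0938 CPM in N2. B0511.11 averaged 2.50 ± 0.599 CPM in flp-17(lof), 5.57 ± 1.07 CPM in egl-6(lof) and 2.29 ± 0.517 CPM in N2 (SD, n = 5 for each group of these genes). The egl-6(lof) libraries of these 3 genes did not overlap with N2. In egl-6(lof) against N2, F56B3.2 fell by 0.67 on the log2 scale (SE 0.08, adjusted p = 1.18e-05, edgeR), and the scramblase family gene scrm-4, which overlaps kpc-1 on the other strand, rose by 1.07 (SE 0.14, adjusted p = 0.000133).

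**Figure D3:**
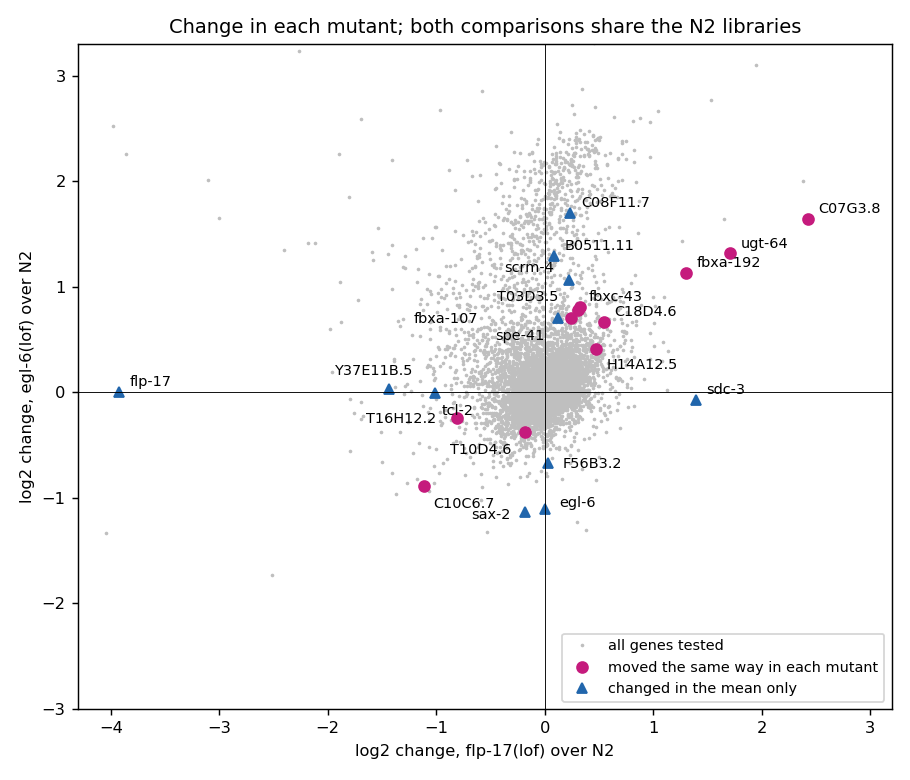
Log2 change over N2 of every tested gene in flp-17(lof) (horizontal axis) and egl-6(lof) (vertical axis); circles are the 11 genes that moved the same way, triangles the 11 that passed in the mean only, and 6 genes lie outside the axes. Because both axes share the N2 libraries, the cloud as a whole is not read as likeness of the mutants; ugt-64, at 1.71 and 1.32, stands clear of it.

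Taken alone, 11 genes passed in flp-17(lof) (0.0752%) and 71 in egl-6(lof) (0.485%), 62 of them higher (0.424%). The count for egl-6(lof) was 251 (1.7%) without flp-17(lof) replicate 1, 646 without egl-6(lof) replicate 1 and 457 without N2 replicate 1. It was 29 to 41 without any other egl-6(lof) library and 30 to 33 without N2 replicate 3, 4 or 5. The direct comparison of egl-6(lof) with flp-17(lof), which does not use N2, gave 257 genes (1.76%), of which 244 were higher in egl-6(lof) (1.67%). Without flp-17(lof) replicate 1 it gave 151 (1.02%), of which 140 were higher (0.946%). The count was 70 to 145 without any other flp-17(lof) library, 783 without egl-6(lof) replicate 1 and 78 to 126 without any other egl-6(lof) library. Of the 11 genes that moved the same way, 3 are among these 257: T03D3.5, T16H12.2 and spe-41.

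The array strains gave a second setting, whose levels the contrast of both mutants with N2 does not compare. It is not independent of that contrast, as all 25 libraries share 1 fit with its spread and batch term. In sorted animals, flp-17oe egl-6(lof) was compared with flp-17oe, in which 204 of 14634 genes passed (1.39%; 2.18% without flp-17(lof) replicate 1), and 5 of the 11 genes passed in the direction of the mutants. For ugt-64 the levels were 70.2, 60.3, 61.5, 56 and 53.5 CPM in flp-17oe egl-6(lof) and 22.0, 30.4, 24.8, 22.3 and 20.4 CPM in flp-17oe, a log2 change of 1.33 (SE 0.11, adjusted p = 6.38e-08, edgeR). For fbxa-192 they were 26.2, 29.4, 28.7, 23.9 and 25.3 CPM in flp-17oe egl-6(lof) and 7.98, 9.79, 10.3, 8.88 and 9.95 CPM in flp-17oe, a log2 change of 1.51 (SE 0.10, adjusted p = 1.01e-09). Neither gene's groups overlapped. The other 3 were T03D3.5 (log2 0.38, SE 0.08, adjusted p = 0.0101), C07G3.8 (log2 1.76, SE 0.40, adjusted p = 0.0232) and spe-41 (log2 0.56, SE 0.11, adjusted p = 0.00877). Of these, C07G3.8 had 4, 7, 1, 1 and 7 counts in flp-17oe and was kept by the count filter only through genotypes in which it is high.

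The remaining 6 genes did not pass there. C10C6.7 had a log2 change of -0.02 (SE 0.13), T16H12.2 of 0.11 (SE 0.11), T10D4.6 of 0.02 (SE 0.06), H14A12.5 of -0.06 (SE 0.10), fbxc-43 of 0.37 (SE 0.12) and C18D4.6 of 0.23 (SE 0.14). For 5 of them flp-17oe itself differed from N2, to the side on which the mutants lay: by log2 -1.02 in C10C6.7 (adjusted p = 1.60e-05, edgeR), -0.58 in T16H12.2 (0.00107), -0.31 in T10D4.6 (0.00148), 0.84 in fbxc-43 (0.000140) and 0.77 in C18D4.6 (0.00118). C10C6.7 had 1.21, 1.70, 1.59, 1.81 and 1.73 CPM in flp-17oe, below all N2 libraries. In these 5 genes N2 thus lay apart from all 4 other genotypes on average, with mean levels of 3.24, 4.6, 28.5, 1.24 and 3.61 CPM in that order of genes. The array and the sorting coincide, so their parts in the difference between flp-17oe and N2 cannot be told apart.

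**Figure D4:**
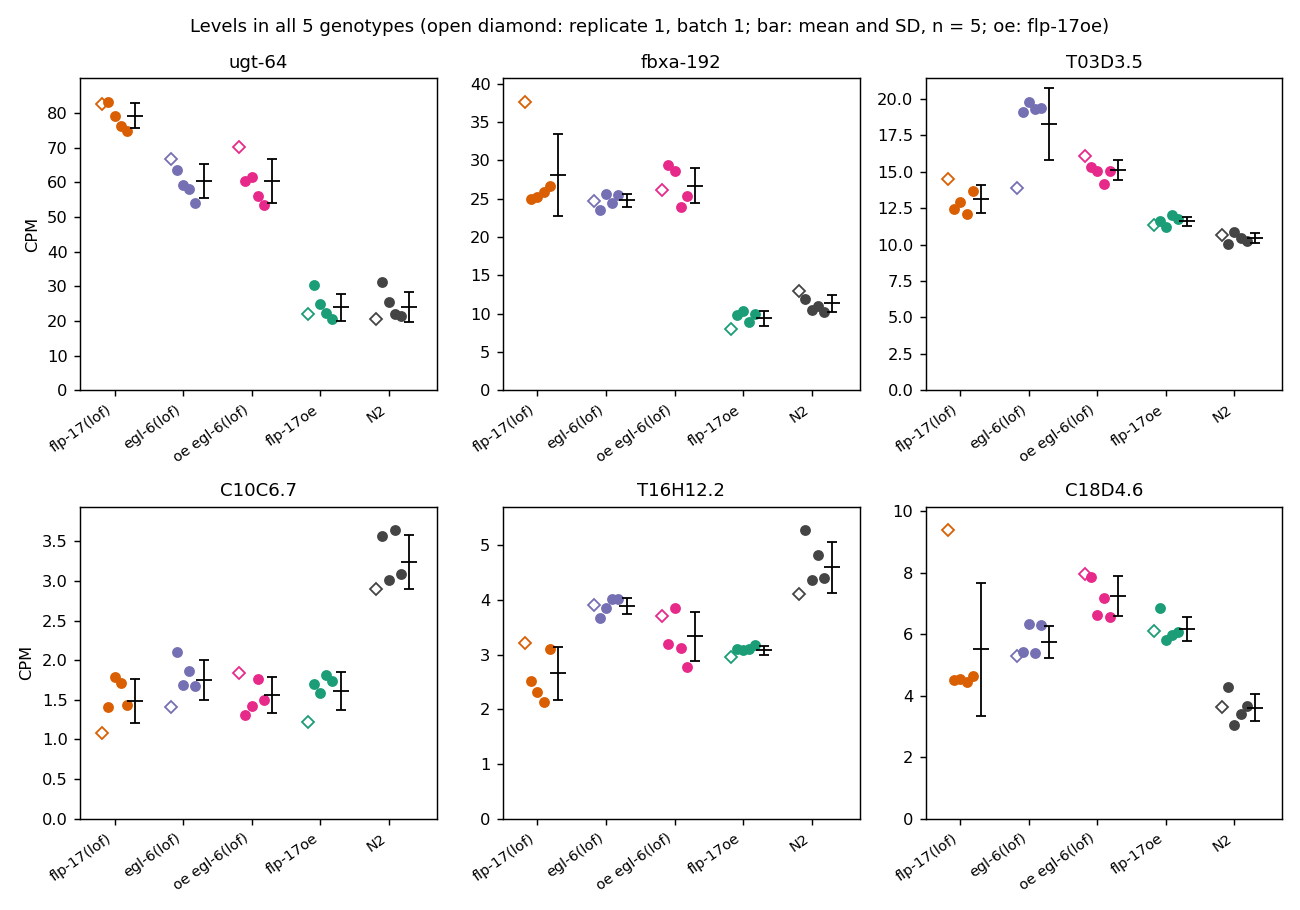
Level in CPM (vertical axis, from 0) of 6 of the 11 genes in the 5 libraries of each genotype, where flp-17oe egl-6(lof) is written oe egl-6(lof); open diamonds are batch 1 and bars are mean and SD. In ugt-64 and fbxa-192 the genotypes with intact flp-17 and egl-6 (flp-17oe and N2) lie low together. In T03D3.5 flp-17oe (11.2 to 12.0 CPM) lies between N2 (10.0 to 10.8 CPM) and flp-17(lof) (12.1 to 14.5 CPM). In C10C6.7, T16H12.2 and C18D4.6 N2 lies apart from flp-17oe.

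In the gene groups of the signal itself, no gene passed other than the mutated ones. With 0.15% of all genes past the threshold, lists of these sizes would hold few or no such genes whatever their function, so these counts say little about the groups. Of 20 tested genes of the FLP-17 and EGL-6 pathway, from the peptides and receptor to G proteins and channels, the 2 that fell were flp-17 and egl-6, and the median log2 change was 0.00. Of 34 genes of the egg-laying circuit, 0 passed in edgeR, 0 had an unadjusted p under 0.05 and 0 passed in DESeq2, with a median of 0.03. Among 30 FLP peptide genes and 12 BAG neuron genes the single member to pass was flp-17 in each. No member passed among 13 neuropeptide processing, 69 NLP peptide and 24 insulin-like genes, with 0, 1 and 1 of them at an unadjusted p under 0.05 and 0 in DESeq2. The lists were chosen with results of these data known.

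Across 31 lists, 22 had no member that passed in the mean of both mutants, and 27 had a median within 0.1 of 0 on the log2 scale. The lists of cytochrome P450 genes (60 tested, median 0.03), glutathione S-transferases (37, median 0.08), C-type lectins (131, median 0.06), immune effectors (30, median 0.05), heat shock proteins (47, median -0.01), MATH and BATH genes (58, median 0.03), fat metabolism genes (38, median -0.04), vitellogenins (6, median 0.02), oocyte and eggshell genes (28, median -0.04) and early embryonic genes (20, median -0.10) had no such member in edgeR or in DESeq2. At an unadjusted p under 0.05 there were 2 of 60 cytochrome P450 genes, 9 of 131 C-type lectins and 6 of 58 MATH and BATH genes. There were 0 in each of the others, and 480 among all 14634 genes. In batch 2 alone, where 2.35% of all genes were called higher, 6 of 128 C-type lectins passed, all higher. Markers of intestine (15), body wall muscle (21), germline (21), hypodermis (14) and neurons (18) likewise had none, 0 at an unadjusted p under 0.05 and 0 in DESeq2, with medians between -0.06 and 0.07. The 20 sex determination and dosage compensation genes had 1 (sdc-3, higher) and the 8 Furry and NDR kinase genes 1 (sax-2, lower).

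Sperm transcripts were the group with the largest median among the 31 lists, and their count of calls differed between all libraries and batch 2 alone. Major sperm proteins form the cytoskeleton of the crawling sperm and also signal to oocytes. Of 28 tested, 0 passed in the mean of both mutants in edgeR or in DESeq2, although all 28 were higher, 24 with an unadjusted p under 0.05 (2.66% of all genes), and the median log2 change was 1.32, against 0.01 over all genes. By mutant the median was 0.29 in flp-17(lof) and 2.27 in egl-6(lof). Their summed level in replicates 1 to 5 was 39, 31.2, 25.8, 48.6 and 28.9 CPM in flp-17(lof), 74.5, 138, 171, 162 and 84.1 CPM in egl-6(lof), and 173, 17.3, 23.3, 20.1 and 10.5 CPM in N2. The N2 library of batch 1 was thus the highest of all 15, while the 4 N2 libraries of batch 2 lay below all mutant libraries. The batch 1 library was also the highest in both array genotypes. It had 75.6 CPM in flp-17oe (5.38 to 14.6 CPM in batch 2) and 64.2 CPM in flp-17oe egl-6(lof) (2.74 to 19.1 CPM in batch 2). Means over all libraries of these genotypes were 22.7 and 19.6 CPM in that order. In batch 2 alone, which leaves out replicate 1 of all 5 genotypes at once, 27 of 27 passed and the median was 1.98, with 16 of them meeting the rule for both mutants. In batch 1, with 1 library per genotype, both mutants lay below N2.

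The N2 library of batch 1 was also highest for 37 other spermatogenesis genes. Here 1 passed (spe-41), 14 were higher with an unadjusted p under 0.05 (2.66% of all genes), and the median was 0.91. Their summed level was 199, 213, 212, 224 and 217 CPM in flp-17(lof), 228, 272, 289, 288 and 245 CPM in egl-6(lof), and 303, 193, 218, 213 and 208 CPM in N2. In batch 2 the egl-6(lof) libraries lay above N2 and the flp-17(lof) libraries overlapped with it. In batch 2 alone 24 of 36 passed, and the median was 1.53.

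**Figure D5:**
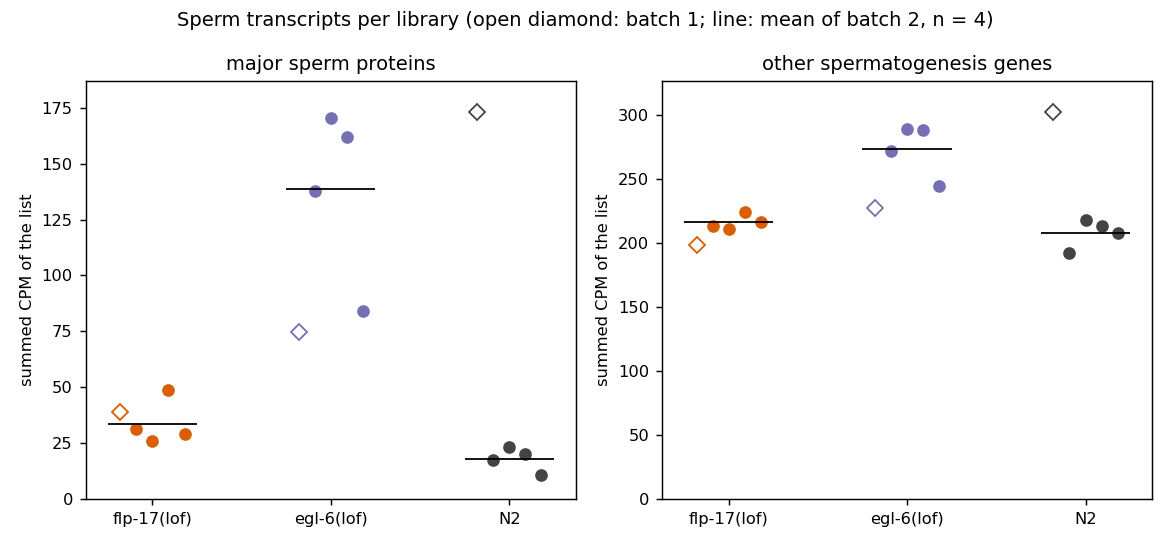
Summed CPM (vertical axis, from 0) of major sperm protein genes (left) and other spermatogenesis genes (right) in each library of flp-17(lof), egl-6(lof) and N2; open diamonds are batch 1 and the line is the mean of the 4 batch 2 libraries. The N2 diamond, at 173 CPM on the left and 303 CPM on the right, lies above every other library.

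Over all genes the count was also higher in batch 2 alone. In batch 2 alone, 358 of 14542 genes passed in the mean of both mutants (2.46%), 342 of them higher (2.35%), and 185 of the genes tested in both fits moved the same way, 178 of them higher. These 185 include 10 of the 11 genes above, all but spe-41, and 25 members of the sperm lists. Their levels were mostly low, as the median gene of the 185 had a median of 0.388 CPM over the 15 libraries. In 168 of the 185 N2 replicate 1 lay above every other N2 library, and in 83 it lay above every mutant library. Leaving out N2 replicate 1 alone, however, gave 18 genes in the mean and 9 moving the same way, and leaving out egl-6(lof) replicate 1 alone gave 41 and 18. No fit within batch 1 is possible, as it holds 1 library per genotype.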

How the data were processed

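The authors deposited 1 table of raw read counts for all genes and libraries, which holds whole numbers only. Reads were aligned with STAR 2.7.11b to ce11, per the submitters' processing notes. How reads were counted (program, gene models, use of strand) is not stated in what was available. Of 42532 gene names, 40782 matched symbols in Ensembl release 115, 1659 matched other names and 91 stayed unmatched. Replicates differed by at least 5.67 in chi-square per gene, beyond sampling noise, and each was kept as a sample.

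All 25 libraries were fitted in 1 model (genotype and batch) with edgeR 4.0.16 (robust quasi-likelihood, TMM scaling) and limma 3.58.1 in R 4.3.3, after filterByExpr (minimum count 10, total 15) left 14634 genes. The contrast was the mean of flp-17(lof) and egl-6(lof) minus N2, with Benjamini-Hochberg adjustment over all genes tested. SE is the log2 change divided by the square root of F. CPM uses TMM-scaled library sizes. The procedure was tested on simulated data that held no batch difference and no deviating library, so that test does not cover their effect on the counts.

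Named genes are flp-17, egl-6 and flp-10, every gene that moved the same way, up to 5 rises and 5 falls among those that passed in the mean only and among those that differ between mutants (mean log2 CPM of at least 1), and up to 3 members that passed from each list. The members, the 31 lists and this rule were chosen with earlier results of these data known. Alternatives were DESeq2 1.42.0, its size factors within edgeR, other count filters, the batch term left out, the replicate number as block, the 15 washed libraries alone, both mutants as 1 group, batch 2 alone, and each library or replicate number left out. Using flp-17oe in place of N2, and leaving out N2 and flp-17(lof) replicate 1 together, were added after seeing the data. Precision rests on the number of libraries and on the depths given above.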

Additional observations from a re-analysis of the deposited data

Results flagged for a closer look

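Of 96 groups of 5 libraries examined for a library far from the others, 14 had one, and chance gives about 1 in 20 where all 5 are alike. All but those in col-73 were replicate 1, the only batch 1 library of its group. A batch difference and a deviation of a single library cannot be told apart there. In flp-17(lof), replicate 1 stood apart in flp-10 (2.26 CPM, low), fbxa-192 (37.7 CPM), C18D4.6 (9.40 CPM), B0511.11 (3.54 CPM), F56B3.2 (17.4 CPM) and B0261.8 (14.9 CPM), all high but the first; it is the shallow library with more ribosomal RNA. In flp-17(lof), replicate 2 was high in col-73 (0.263 CPM). In egl-6(lof), replicate 1 was low in T03D3.5 (13.9 CPM) and pud-3 (7.24 CPM) and high in T10D4.6 (23.7 CPM). In N2, replicate 2 was high in col-73 (3.14 CPM). N2 replicate 1 was high in gipc-2 (9.11 CPM), in summed major sperm proteins (173 CPM) and in summed other spermatogenesis genes (303 CPM).

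The mutants differed from each other in 20 named genes, by the direct test in edgeR, given as log2 of egl-6(lof) over flp-17(lof). Some genes were named because they differ, so the naming rule in part fixes this count. Over all 14634 genes tested, 257 (1.76%) differed. Higher in egl-6(lof) were flp-17 (3.93), Y37E11B.5 (1.46), tcl-2 (1.00), B0511.11 (1.21), C08F11.7 (1.47), scrm-4 (0.85), fbxa-107 (0.58), T16H12.2 (0.57), T03D3.5 (0.48), spe-41 (0.46), col-73 (5.11), pud-4 (2.50), pud-3 (2.22) and gipc-2 (2.21). Lower in egl-6(lof) were egl-6 (-1.11), sdc-3 (-1.46), T05A12.4 (-1.11), sax-2 (-0.96), wdfy-3 (-0.91) and F56B3.2 (-0.70).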

How the results depend on the processing

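The genes ugt-64, fbxa-192 and C10C6.7 passed in all 29 refits, with log2 changes of 1.44 to 1.62, 1.15 to 1.26 and -1.07 to -0.96. T03D3.5 passed in 28 of 29, T16H12.2 in 24, T10D4.6 in 22, C07G3.8 in 21 of 28, H14A12.5 in 13, fbxc-43 in 11, C18D4.6 in 8 and spe-41 in 5, each with its sign kept. With flp-17oe in place of N2, the sign turned in C10C6.7 (0.0135), T16H12.2 (0.0510), T10D4.6 (0.0297), fbxc-43 (-0.29) and C18D4.6 (-0.16), none past the threshold; ugt-64 (1.53), fbxa-192 (1.48), T03D3.5 (0.42) and C07G3.8 (1.86) passed, and H14A12.5 (0.16, adjusted p = 0.179) and spe-41 (0.145, adjusted p = 0.275) kept their sign without passing in edgeR.

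The count in the mean of both mutants was 37 in DESeq2, 13 in the 15 washed libraries, 3 with both mutants as 1 group and 358 in batch 2. Genes moving the same way numbered 19 in DESeq2 (all 11 among them), 7 with at least 10 counts in every library of a genotype, 5 in the washed libraries and 185 in batch 2. For egl-6(lof) against N2 the count was 362 in DESeq2, 35 without a batch term and 693 in batch 2. For egl-6(lof) against flp-17(lof) it was 482 in DESeq2, 152 without a count filter, 85 without a batch term and 734 in batch 2, and between the array strains 350 in DESeq2. The causes were not tested. Leaving out a library or replicate number gave 7 to 358 genes in the mean, 4 to 185 moving the same way, 10 to 14 for flp-17(lof) alone, 17 to 693 for egl-6(lof) alone, 27 to 783 between mutants and 18 to 322 in the array strains. Single libraries that moved the mean count by over 1.5 times were egl-6(lof) replicate 1 (41 without it) and N2 replicates 3, 4 and 5 (13, 13 and 14). For genes moving the same way they were egl-6(lof) replicate 1 (18), flp-17(lof) replicates 4 and 5 (7 each) and N2 replicates 3, 4 and 5 (6 each). Without N2 and flp-17(lof) replicate 1 together, 12 genes moved the same way, 7 of them among the 11. Whether replicate numbers pair the genotypes was not settled. Correlations of same-numbered deviations ran from -0.411 to 0.383, but libraries of unlike number were not compared and batch was not removed. Count columns of the same replicate number share a group tag in their names. With a replicate block in place of batch, 16 genes passed in the mean and 8 moved the same way. In that fit 13 passed for flp-17(lof) alone, 78 for egl-6(lof) alone, 229 between mutants and 225 in the array strains.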

Other observations

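Several groups set the mutants apart rather than together. Of 122 F-box B and C genes, 1 passed in the mean of both mutants, while 15 were higher in egl-6(lof) than in flp-17(lof) and 0 were lower, with a median difference of 0.64 on the log2 scale against -0.01 over all genes, of which 1.67% passed as higher in egl-6(lof). Without flp-17(lof) replicate 1, 8 of the 122 passed as higher, against 0.946% of all genes. Against N2 the median was 0.15 in egl-6(lof) and -0.40 in flp-17(lof). The summed level of the list differed less, at 261 to 274 CPM in egl-6(lof) and 245 to 288 CPM in N2. In flp-17(lof) it was 281 CPM in replicate 1 and 228 to 245 CPM in batch 2. Among 132 cuticle collagen genes 17 were higher in egl-6(lof) than in flp-17(lof) and 0 lower, with a median difference of 0.67. In the mean of both mutants 0 passed in edgeR or DESeq2. At an unadjusted p under 0.05, 14 were higher and 2 lower, beside 389 and 91 of all 14634 genes. The count of 17 was 12 when flp-17(lof) replicate 1 was left out. That library had 94814 CPM of summed collagens, against 32907 to 38849 CPM in the 4 other flp-17(lof) libraries.

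Single genes with large differences between mutants included pud-3 and pud-4, neighbours on chromosome V that encode proteins abundant in daf-2 insulin receptor mutants. In replicates 1 to 5, pud-4 had 1.99, 14.6, 20.3, 16.7 and 17.8 CPM in egl-6(lof) and 3.92, 1.65, 1.54, 2.60 and 2.58 CPM in flp-17(lof). The egl-6(lof) library of batch 1 lay within the range of flp-17(lof), and the other 4 lay far above it. The BEACH domain gene wdfy-3 averaged 25.0 ± 3.11 CPM in egl-6(lof) and 47.1 ± 8.70 CPM in flp-17(lof) (SD, n = 5 each).

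All 75 tested cytosolic ribosomal protein genes stayed below the threshold in edgeR and DESeq2, with 0 at an unadjusted p under 0.05 in the mean of both mutants. Their median was 0.08 with all libraries, 72 of them higher, and -0.03 without flp-17(lof) replicate 1, in which their summed level was 194061 CPM against 87089 to 118210 CPM in the other 14 libraries.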
